A study of Mus musculus with 24 samples.

Results

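The collagens and matrix proteins described here were the 41 genes on the array named Col, a number, a and a number, and 20 further secreted matrix genes from fibronectin (Fn1) to versican (Vcan). In all 61 were on the array, among 36413 gene names, and 51 passed the filter on dim probes, as did 28235 genes in total. A gene passed when a probe of it was well above background on at least 6 of 24 arrays. The 10 that did not pass were Col2a1, which had 5 such arrays, Col6a4 with 4, Col11a1 with 2, Col9a3, Col13a1 and Tnc with 1 each, and Col10a1, Col19a1, Col24a1 and Col28a1 with 0. Of those that passed, Col25a1 had the fewest, with 14 arrays. Those that passed were 8 of 11 fibrillar, 8 of 8 basement membrane, 3 of 4 type VI and 13 of 18 further collagens, 7 of 8 matricellular genes, 5 genes of fibronectin and elastic fibres, 2 cross-linking enzymes and 5 proteoglycans. Members are defined by gene name. Each of 24 male mice gave 1 array of left ventricular RNA, with the right ventricle removed, and 4 groups held 6 mice apiece. The groups were mG4H STZ, mG4H VEH, CON STZ and CON VEH. mG4H mice carried an inducible GLUT4 (Slc2a4) transgene whose expression is limited to cardiomyocytes, and CON mice were its controls. STZ mice were made diabetic with streptozotocin, which destroys insulin-producing beta cells, in 5 daily doses of 55 mg/kg, and VEH mice were given its citrate buffer. The transgene was induced 2 weeks after STZ, and hearts were taken after 2 weeks of induction. Siblings were placed in different groups, and the labels do not say which mice they were. Blood glucose, its unit not stated, was 500 to 601 in mG4H STZ, 131 to 152 in mG4H VEH, 600 to 601 in CON STZ and 117 to 164 in CON VEH mice. Its median was 558.5 in mG4H STZ mice and 601 in CON STZ mice, the latter equal to the highest value in either group. P-values measure the spread between these mice.

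The extracellular matrix of the heart is made mainly by cardiac fibroblasts, with basement membrane added by muscle and endothelial cells. Fibrillar collagens form the load-bearing fibres between muscle bundles, and lysyl oxidases cross-link them. Matricellular proteins such as connective tissue growth factor, thrombospondins, periostin and osteopontin carry little load. They bind receptors, growth factors and other matrix proteins, and are known to appear in injured or stressed hearts. The transgene is driven in cardiomyocytes, not in fibroblasts.

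Sequence upstream of the start site is shown for the called members that have a RefSeq window and for main fibrillar collagens that have one: the matricellular genes Postn and Spp1 and the proteoglycan gene Bgn, which rose in CON STZ hearts, and the fibrillar collagens Col1a2 and Col3a1, which did not pass the test. Windows come from RefSeq on GRCm38.p6 and run 250 bases up to the start. Of the 51 members, 35 had a window, 40 windows in all, and of the 6 called members 3 had. Capitals mark matches, on either strand, to 5 motifs. The TATA box was searched as TATAAA. The box known from NF-Y binding was searched as CCAAT. The GC box, read by Sp1, was searched as GGGCGG. The AP-1 site was searched as TGANTCA, with N any base. The TEAD site was searched as GGAATG. No match was required to be free of overlap with another. Postn and Spp1 have 2 starts each, and all 7 windows lie on the plus strand.
Postn upstream start, chr3:54359017-54359266: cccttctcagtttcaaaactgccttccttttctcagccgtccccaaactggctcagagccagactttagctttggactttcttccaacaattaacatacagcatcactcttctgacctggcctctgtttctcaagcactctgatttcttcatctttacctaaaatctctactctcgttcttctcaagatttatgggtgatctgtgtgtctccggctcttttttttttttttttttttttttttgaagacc
Postn downstream start, chr3:54360857-54361106: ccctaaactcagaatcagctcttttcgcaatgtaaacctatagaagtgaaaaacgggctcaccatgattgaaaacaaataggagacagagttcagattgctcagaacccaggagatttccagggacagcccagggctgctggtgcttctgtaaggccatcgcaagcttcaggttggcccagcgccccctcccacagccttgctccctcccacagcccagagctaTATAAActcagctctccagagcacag
Spp1 upstream start, chr5:104434861-104435110: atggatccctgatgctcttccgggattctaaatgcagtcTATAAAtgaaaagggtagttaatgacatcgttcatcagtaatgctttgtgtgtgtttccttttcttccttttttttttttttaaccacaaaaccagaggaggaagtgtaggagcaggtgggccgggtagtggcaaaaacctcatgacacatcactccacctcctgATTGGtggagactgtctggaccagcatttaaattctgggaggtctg
Spp1 downstream start, chr5:104435942-104436191: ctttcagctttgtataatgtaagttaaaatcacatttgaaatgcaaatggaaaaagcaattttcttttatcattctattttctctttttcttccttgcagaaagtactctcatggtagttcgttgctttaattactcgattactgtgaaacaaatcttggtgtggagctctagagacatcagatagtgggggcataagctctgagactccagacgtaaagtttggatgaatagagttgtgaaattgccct
Bgn, chrX:73483351-73483600: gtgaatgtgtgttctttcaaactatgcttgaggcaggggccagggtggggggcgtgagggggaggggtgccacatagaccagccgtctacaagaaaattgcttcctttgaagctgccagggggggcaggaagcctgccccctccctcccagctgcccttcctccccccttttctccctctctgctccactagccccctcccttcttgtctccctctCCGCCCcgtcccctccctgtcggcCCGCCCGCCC
Col1a2, chr6:4505368-4505617: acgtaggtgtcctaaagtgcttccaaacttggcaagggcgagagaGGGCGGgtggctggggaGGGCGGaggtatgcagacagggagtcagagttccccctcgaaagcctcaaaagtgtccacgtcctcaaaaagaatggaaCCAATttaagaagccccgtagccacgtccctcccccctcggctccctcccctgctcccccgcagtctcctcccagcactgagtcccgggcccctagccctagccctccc
Col3a1, chr1:45311288-45311537: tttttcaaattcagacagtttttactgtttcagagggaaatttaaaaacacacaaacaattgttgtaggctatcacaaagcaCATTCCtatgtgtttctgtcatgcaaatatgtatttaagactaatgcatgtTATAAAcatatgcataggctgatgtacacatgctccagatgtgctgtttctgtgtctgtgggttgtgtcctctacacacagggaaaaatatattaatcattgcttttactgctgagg

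The downstream Postn window held a TATA box 26 bases before its start, and the upstream Postn window and the downstream Spp1 window held no match. The upstream Spp1 window held a CCAAT box, reversed, 46 bases before the start, and a TATA box at 211 bases. Bgn held 3 GC boxes and no TATA box, Col1a2 held 2 GC boxes and a CCAAT box, and Col3a1 held a TATA box and a TEAD site. Over all 32851 windows, the share with a match was 12.4% for the TATA box, 33.8% for the CCAAT box, 32.7% for the GC box, 6.75% for the AP-1 site and 12.6% for the TEAD site. Of the 40 member windows, 6 held the TATA box, 14 the CCAAT box, 23 the GC box, 1 the AP-1 site and 5 the TEAD site. A match is a run of letters and not a measured binding site.

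The arrays gave a processed Cy3 signal for each probe, taken here as log2 minus the 75th percentile of that array. Below, each value is that log2 signal minus the same gene's mean in CON VEH hearts, so 0 is the CON VEH mean and 1 is a doubling. The 75th percentile was between 370 and 583 signal units, and the number of arrays limits the precision. The arrays lay on 4 slides: slides 1 to 3 held every group, and slide 4, scanned on another day, held replicate 3 of mG4H VEH and of CON VEH. The probe for Slc2a4 gave mG4H against CON log2 fold changes of 0.20 ± 0.16 (SE) under STZ and -0.20 ± 0.16 under VEH, neither past the threshold. Whether that probe reads the transgene's transcript is not given in the sources used here, so it does not check the genotype labels. All 11 ventricular cardiomyocyte markers were well above background on all 24 arrays, and so were the 13 fibroblast markers measured. In tissue RNA, fewer cells of a type and less RNA per cell cannot be told apart.

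3 arrays of diabetic hearts stood apart from the rest of their groups, and they bear on many of the collagen results. CON STZ replicate 3 had 28 of the 51 members below all 6 CON VEH arrays, and mG4H STZ replicate 5 had 25, against 3 to 7 in the other CON STZ hearts and 3 to 16 in the other mG4H STZ hearts. Col3a1 lay at -2.34 in CON STZ replicate 3 and at -2.35 in mG4H STZ replicate 5. Lox, a cross-linking enzyme, lay at 3.47 in CON STZ replicate 3 and at 3.53 in mG4H STZ replicate 5, high beside low Col3a1. The other cross-linking enzyme measured, Loxl2, went the other way, at -0.64 and -0.49 in the same hearts. mG4H STZ replicate 3 had 16 members below all CON VEH arrays, close to the 15 of mG4H STZ replicate 1, so that count does not set it apart. Its Lox value was 4.05, its Ctgf value 3.37 and its Col3a1 value -0.69. The 3 arrays also held extremes over the whole array: 15.9% of all genes were highest of 24 in CON STZ replicate 3, 12.6% in mG4H STZ replicate 5 and 13.0% in mG4H STZ replicate 3, against 0.591% to 8.13% in the other arrays. The share of genes lowest of 24 was 5.72%, 11.3% and 9.54% in the same order, against 0.974% to 7.78% in the other arrays, so CON STZ replicate 3 did not stand out there. They came from slides 3, 1 and 3. Results are given with and without them, a choice made after seeing the data.

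**Figure D1:**
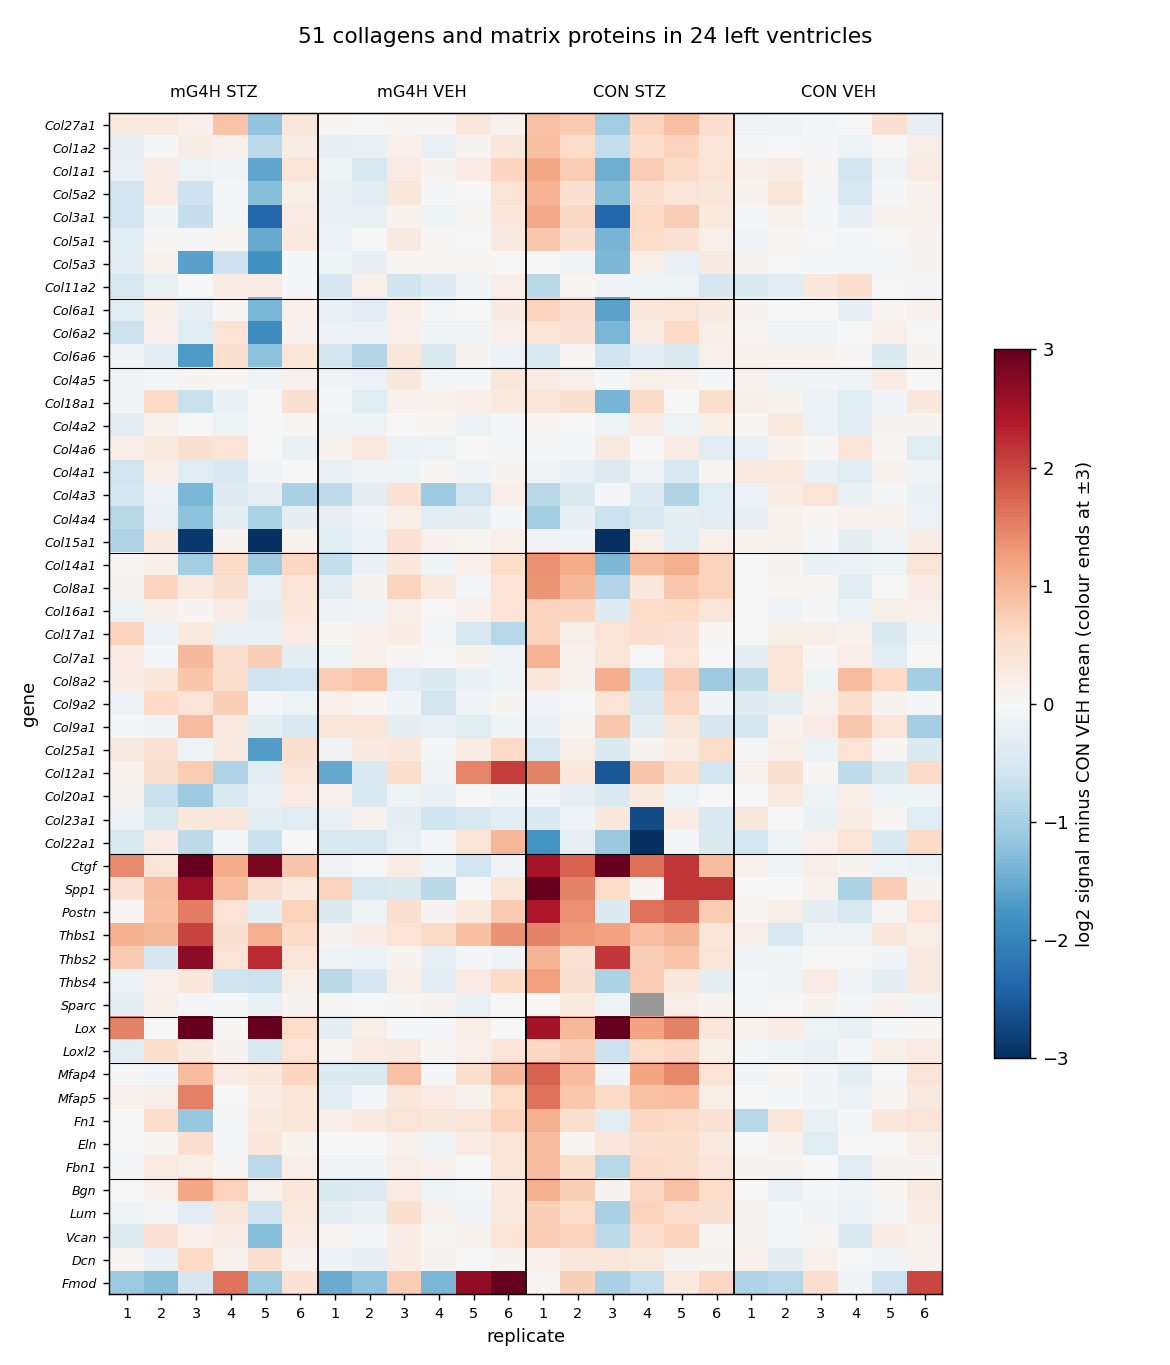
Log2 signal of the 51 members (rows) in 24 left ventricles (columns, by group and replicate number), minus each gene's CON VEH mean. Red is higher and blue lower, the colour ends at 3 in either direction, and grey is a missing value. Rows are grouped, top to bottom, as fibrillar, type VI, basement membrane and other collagens, matricellular genes, cross-linking enzymes, fibronectin and elastic fibres, and proteoglycans. The column of CON STZ replicate 3 is blue for collagens that are red in the other CON STZ hearts.

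In control hearts 6 matrix genes rose with STZ and 0 fell. They were the matricellular genes Ctgf, Spp1, Postn and Thbs1, the microfibril gene Mfap5 and the proteoglycan gene Bgn. Among all genes 1.66% were called higher and 2.3% lower, at an adjusted p under 0.05 in limma over all 28235 genes. For the 51 members that is 6 higher and 0 lower. An unadjusted p under 0.05 was seen for 15 members and for 4026 of all genes. Without CON STZ replicate 3, 13 members were called higher and 0 lower, and 1.46% of all genes were called higher. The median log2 fold change was 0.22 over the members (0.45 without that array) and 0.03 over all genes.

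Ctgf, which the array names by its old symbol and which encodes the secreted connective tissue growth factor (now Ccn2), had the largest change of the members in CON hearts. Its lowest, median and highest values were 0.91, 1.96 and 3.21 in CON STZ hearts, against -0.18, -0.01 and 0.18 in CON VEH hearts. Every CON STZ heart lay above every CON VEH heart. The difference was 2.03 ± 0.40 (SE, n = 6 each) on the log2 scale, 4.08-fold, with an adjusted p of 0.00533. With slide as a block it was 2.11, and within slides 1, 2 and 3 it was 1.30, 2.24 and 2.70. The call held when each of the 24 arrays was left out in turn. In mm9 coordinates the Ctgf probe spans 24318281 to 24318340 of chromosome 10. Probes were not assigned to exons here.

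Thbs1 encodes thrombospondin 1, which is known to activate latent TGF beta. Its lowest, median and highest values were 0.37, 1.12 and 1.48 in CON STZ hearts, against -0.48, 0.05 and 0.33 in CON VEH hearts, and the groups did not overlap. The difference was 1.04 ± 0.25 (SE, n = 6 each), 2.06-fold (adjusted p = 0.0173), and between 0.44 and 1.85 within slides 1 to 3. With 1 array left out in turn, the call was lost only without CON STZ replicate 1, at 0.96 (adjusted p = 0.0531). The Thbs1 probe spans 117952585 to 117952644 of chromosome 2.

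Spp1, which encodes osteopontin, an integrin ligand made by activated macrophages and fibroblasts, had lowest, median and highest values of 0.04, 1.82 and 3.37 in CON STZ hearts, against -0.95, 0.05 and 0.74 in CON VEH hearts. It was well above background in 5 of 6 CON VEH hearts. CON STZ replicates 3 and 4, at 0.55 and 0.04, lay within the CON VEH range. The difference was 1.62 ± 0.46 (SE, n = 6 each), 3.08-fold (adjusted p = 0.0497). Postn encodes periostin, which binds collagen and marks activated fibroblasts. Its lowest, median and highest values were -0.41, 1.5 and 2.42 in CON STZ hearts, against -0.45, 0.05 and 0.42 in CON VEH hearts. CON STZ replicate 3 was the only CON STZ heart inside the CON VEH range. The difference was 1.26 ± 0.36 (SE, n = 6 each), 2.39-fold (adjusted p = 0.0498), and 1.59 (adjusted p = 0.00473) without that heart.

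Mfap5, a glycoprotein of elastic microfibrils, had lowest, median and highest values of 0.20, 0.85 and 1.64 in CON STZ hearts, against -0.18, -0.02 and 0.27 in CON VEH hearts. Only CON STZ replicate 6 lay within the CON VEH range. The difference was 0.84 ± 0.23 (SE, n = 6 each), 1.79-fold (adjusted p = 0.0368). Bgn encodes biglycan, a small leucine-rich proteoglycan that binds collagen fibrils. Its lowest, median and highest values were 0.08, 0.66 and 1.06 in CON STZ hearts, against -0.21, -0.02 and 0.28 in CON VEH hearts, and CON STZ replicate 3 was again the lowest of its group. The difference was 0.65 ± 0.18 (SE, n = 6 each), 1.57-fold (adjusted p = 0.048). The probes lie on chromosome 5 at 104868502 to 104868561 (Spp1), chromosome 3 at 54194840 to 54194899 (Postn), chromosome 6 at 122478591 to 122478650 (Mfap5) and chromosome X at 70738554 to 70738613 (Bgn).

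These last 4 calls lay close to the threshold. With slide as a block the adjusted p was 0.0659 for Spp1, 0.0719 for Postn, 0.0518 for Mfap5 and 0.0503 for Bgn, while Ctgf (0.00479) and Thbs1 (0.0326) kept their calls. Within slides 1 to 3 the log2 fold changes were 1.06, 2.42 and 1.45 for Spp1, 0.95, 1.70 and 0.89 for Postn, 0.41, 1.27 and 0.82 for Mfap5 and 0.44, 1.09 and 0.50 for Bgn. STZ mice were lighter: body weight, its unit not stated, averaged 25.6 ± 2.30 (SD, n = 6) in CON STZ and 30.85 ± 3.07 in CON VEH mice. With body weight as a covariate 0 members were called, and Ctgf had a log2 fold change of 1.46 (adjusted p = 0.325). Body weight and STZ cannot be told apart fully in this design.

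**Figure D2:**
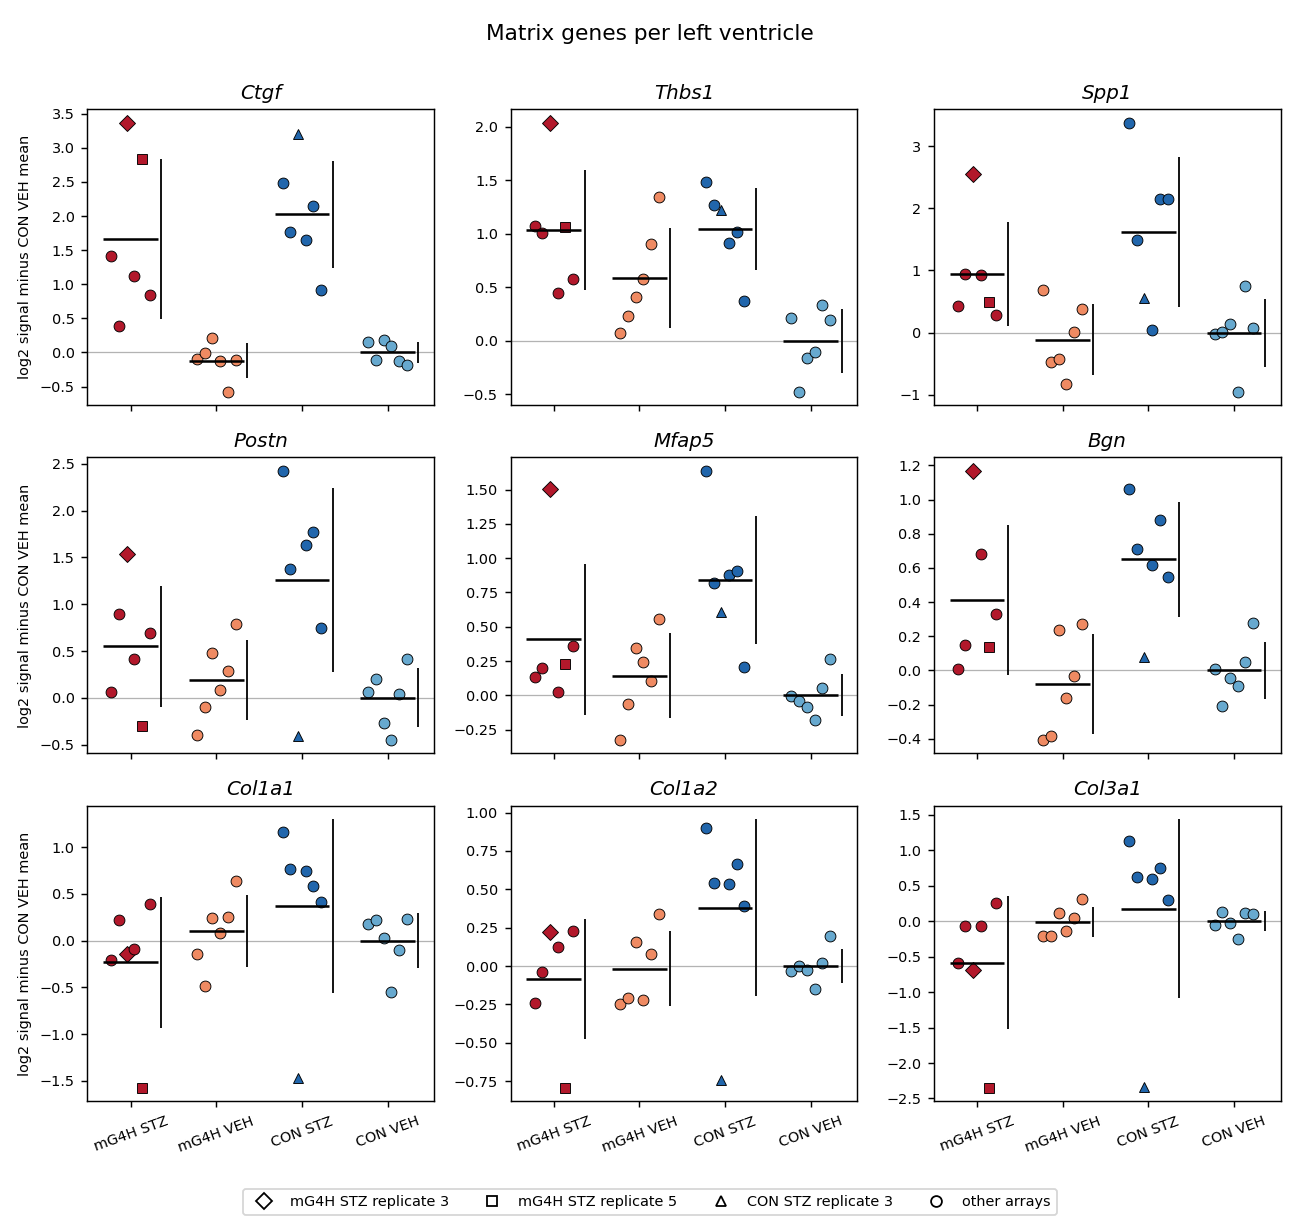
Log2 signal minus the CON VEH mean (vertical axis) in each left ventricle for the 6 called members and for Col1a1, Col1a2 and Col3a1. Horizontal lines are group means, vertical lines 1 SD to either side (n = 6), and the 3 arrays that stood apart have their own symbols. Ctgf lies between 0.91 and 3.21 in CON STZ hearts, above all CON VEH hearts, while Col3a1 holds CON STZ replicate 3 at -2.34.

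The remaining matricellular genes showed a mixed picture. Thbs2, thrombospondin 2, known to shape collagen fibrils, had lowest, median and highest values of 0.39, 0.79 and 2.12 in CON STZ hearts, against -0.09, -0.05 and 0.28 in CON VEH hearts. Its groups did not overlap, yet the difference of 0.92 ± 0.39 did not pass the threshold (adjusted p = 0.24). Without all 3 arrays that stood apart, it was 0.69 ± 0.17 and passed (adjusted p = 0.0152). That fit called 4.21% of all genes higher and 4.17% lower. The mG4H STZ arrays left out are in neither group of this contrast and enter only through the shared estimate of the spread. Every CON STZ heart was above every CON VEH heart for 4 of the 51 members, Ctgf, Thbs1, Thbs2 and Lox, a share of 7.84%, against 1.91% of all genes. Thbs4, a thrombospondin of heart and tendon, differed by 0.25 ± 0.29, with overlap. Sparc, a collagen-binding glycoprotein, had -0.14, 0.10 and 0.29 in CON STZ hearts, against -0.10, -0.03 and 0.13 in CON VEH hearts (0.09 ± 0.09). Replicate 4 of CON STZ had no usable spot for Sparc and was dropped from its fit, which left 5 arrays. Tnc, tenascin C, was well above background on 1 array and was not tested.

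Of the 8 fibrillar collagens past the filter, 0 passed the threshold in CON hearts. Col1a1 and Col1a2 encode the chains of type I collagen, and Col3a1 that of type III, the main fibre collagens of the heart. Col1a1 had lowest, median and highest values of -1.47, 0.66 and 1.16 in CON STZ hearts, against -0.55, 0.10 and 0.24 in CON VEH hearts, a difference of 0.37 ± 0.35 (adjusted p = 0.836). Col1a2 had -0.74, 0.54 and 0.90 in CON STZ hearts, against -0.15, -0.01 and 0.19 in CON VEH hearts (0.38 ± 0.21, adjusted p = 0.465). Col3a1 had -2.34, 0.61 and 1.13 in CON STZ hearts, against -0.25, 0.03 and 0.13 in CON VEH hearts (0.18 ± 0.44, adjusted p = 0.983). In each case CON STZ replicate 3 was the lowest heart, and the other 5 CON STZ hearts lay above all CON VEH hearts. Their values ran from 0.42 to 1.16 for Col1a1, from 0.39 to 0.90 for Col1a2 and from 0.30 to 1.13 for Col3a1.

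The fibrillar count depended on the arrays that stood apart. Without CON STZ replicate 3, 1 of the 8 was called higher, Col1a2 at 0.61 ± 0.16 (adjusted p = 0.0341), while Col1a1 was at 0.73 ± 0.27 (adjusted p = 0.162) and Col3a1 at 0.68 ± 0.30 (adjusted p = 0.31). When mG4H STZ replicate 5 was left out as well, 5 of the 8 were called higher: Col1a1 (adjusted p = 0.0256), Col1a2 (0.00551), Col3a1 (0.0179), Col5a1 (0.0186) and Col27a1 (0.00206). That heart is in neither group of the contrast and enters only through the shared estimate of the spread. In that fit 20 members and 2.22% of all genes were called higher, and 0 members lower. The median log2 fold change of the 8 fibrillar collagens was 0.21 with all arrays, 0.58 without CON STZ replicate 3 and 0.06 without CON STZ replicate 1, the highest heart. Without replicate 1 Col1a1 was at 0.21, Col1a2 at 0.28 and Col3a1 at -0.01, none past the threshold. Col5a1 and Col5a2, which encode the type V chains that set fibril diameter, were at 0.17 ± 0.29 and 0.24 ± 0.30 with all arrays, with overlap. Col27a1, a minor fibrillar collagen, had -1.05, 0.71 and 0.91 in CON STZ hearts, against -0.24, -0.06 and 0.45 in CON VEH hearts (0.44 ± 0.29). Col5a3 (-0.20 ± 0.28) and Col11a2 (-0.27 ± 0.19) had negative differences. Within slides 1, 2 and 3 the fibrillar median was 0.36, 0.65 and -0.34, and slide 3 held the low heart.

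**Figure D3:**
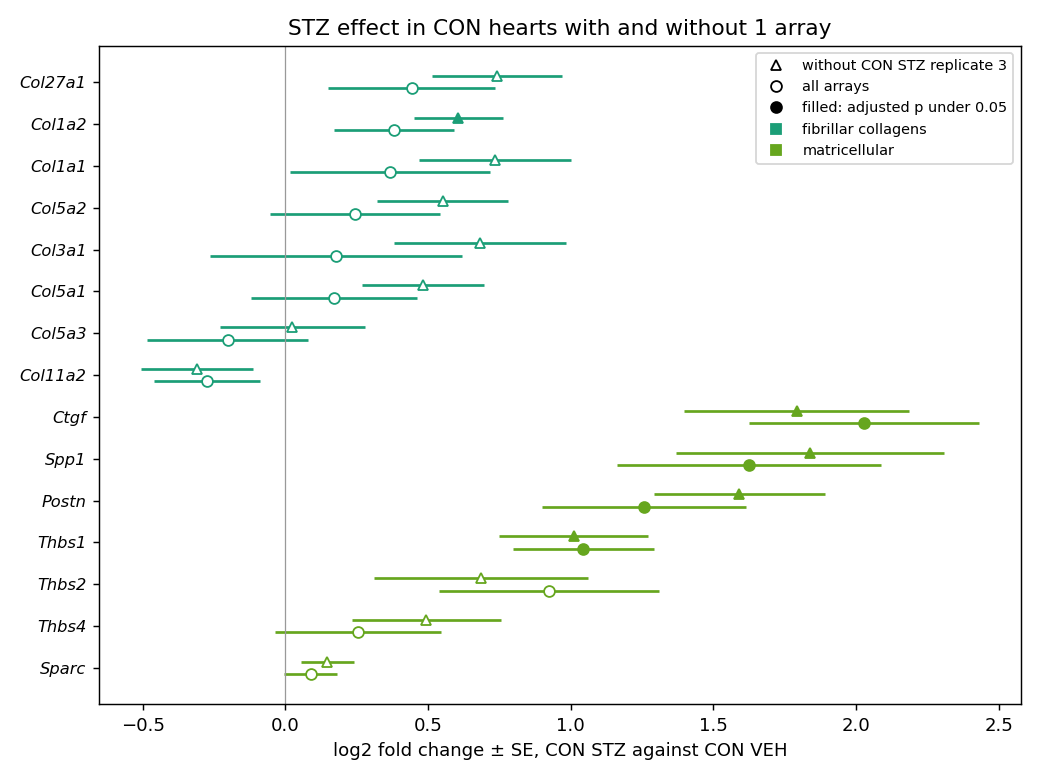
Log2 fold change with its SE (horizontal axis), CON STZ against CON VEH, for the 8 fibrillar collagens and the 7 matricellular genes. Triangles leave out CON STZ replicate 3, circles use all arrays, and filled symbols have an adjusted p under 0.05. Without that array Col3a1 moves to 0.68 and Ctgf to 1.79.

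The remaining collagens stayed below the threshold in CON hearts with all arrays. Of the 8 basement membrane collagens 0 were called, with a median of -0.10. Col4a1, a chain of the type IV network under muscle and endothelium, had lowest, median and highest values of -0.45, -0.16 and 0.06 in CON STZ hearts, against -0.36, 0.00 and 0.29 in CON VEH hearts, with overlap (-0.20 ± 0.13). Col4a4, a type IV chain known from kidney glomeruli, had -1.01, -0.41 and -0.24 in CON STZ hearts, against -0.24, 0.08 and 0.12 in CON VEH hearts. The groups met only at their edges, and the difference was -0.50 ± 0.16 (adjusted p = 0.0972). Without the 3 arrays that stood apart it was -0.47 ± 0.14 and passed (adjusted p = 0.043), in a fit that called 4.17% of all genes lower. Col15a1, a collagen at the surface of muscle and capillaries, had lowest, median and highest values of -3.05, -0.11 and 0.17 in CON STZ hearts, against -0.30, 0.04 and 0.22 in CON VEH hearts. The 3 arrays that stood apart were lowest for this gene, at -3.05 in CON STZ replicate 3, -3.01 in mG4H STZ replicate 5 and -2.89 in mG4H STZ replicate 3. This probe was well above background in 4 of 6 mG4H STZ and in 5 of 6 CON STZ hearts, so the lowest values lie near background. Its difference in CON hearts was -0.54 ± 0.55, and another Col15a1 probe, well above background on all 24 arrays, gave -0.33.

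Type VI collagen forms beaded filaments around cells. Its 3 chains past the filter had a median of 0.08, and 0 were called. Col6a1 had lowest, median and highest values of -1.61, 0.36 and 0.70 in CON STZ hearts, against -0.25, 0.03 and 0.10 in CON VEH hearts, a difference of 0.09 ± 0.30, or 0.44 ± 0.20 without CON STZ replicate 3. Col6a6 had -0.59, -0.37 and 0.15 in CON STZ hearts, against -0.44, 0.09 and 0.14 in CON VEH hearts (-0.27 ± 0.29), and the groups overlapped. Among 13 further collagens 0 were called and the median was 0.07. Col14a1, a collagen on fibril surfaces, had lowest, median and highest values of -1.35, 1.01 and 1.37 in CON STZ hearts, against -0.20, -0.06 and 0.40 in CON VEH hearts (0.63 ± 0.37). Without CON STZ replicate 3, Col14a1 (1.03 ± 0.28, adjusted p = 0.0459), Col8a1, a short-chain collagen of vessel walls (0.82 ± 0.19, adjusted p = 0.0158), and Col16a1 (0.57 ± 0.12, adjusted p = 0.0088) were called higher. The probes of Col16a1 did not all go the same way. With all arrays the probe used gave 0.41, another on all 24 arrays gave 0.37, and another, above background on 22 arrays, gave -0.19. Col22a1, a collagen of tissue junctions in muscle, was at -1.17 ± 0.42 (adjusted p = 0.137), with -3.38, -0.78 and -0.07 in CON STZ hearts, against -0.52, 0.00 and 0.57 in CON VEH hearts. It was above background in 5 of 6 CON STZ hearts.

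Of the 12 measured cross-linking enzymes, genes of fibronectin and elastic fibres and proteoglycans, Mfap5 and Bgn passed. Lox, lysyl oxidase, had lowest, median and highest values of 0.35, 1.34 and 3.47 in CON STZ hearts, against -0.22, 0.02 and 0.22 in CON VEH hearts, without overlap. The difference of 1.66 ± 0.59 did not pass (adjusted p = 0.131), and was 0.96 on its dimmer probe. Without the 3 arrays that stood apart it was 1.30 ± 0.29 (adjusted p = 0.0072), in a fit that called 4.21% of all genes higher. Loxl2, a relative of Lox, had -0.64, 0.59 and 0.77 in CON STZ hearts, against -0.20, -0.04 and 0.24 in CON VEH hearts (0.35 ± 0.20), and 2 other probes of the locus on chromosome 14 gave 0.26 and 0.48. A probe that the array also names Loxl2, but places on chromosome 2, gave -0.01. Mfap4, a microfibril-associated glycoprotein, had -0.10, 1.05 and 1.78 in CON STZ hearts, against -0.30, -0.03 and 0.39 in CON VEH hearts. Its difference was 0.94 ± 0.29 (adjusted p = 0.0737), and 1.15 ± 0.27 (adjusted p = 0.0213) without CON STZ replicate 3. Fn1, fibronectin, which scaffolds new matrix, had lowest, median and highest values of -0.34, 0.53 and 1.07 in CON STZ hearts, against -0.85, 0.15 and 0.39 in CON VEH hearts (0.47 ± 0.26). Eln, elastin, was at 0.43 ± 0.13 (adjusted p = 0.0691) and Fbn1, fibrillin, at 0.35 ± 0.21. Lum, the small proteoglycan lumican, had -0.98, 0.52 and 0.73 in CON STZ hearts, against -0.18, -0.04 and 0.22 in CON VEH hearts (0.32 ± 0.23). It was 0.58 and passed without CON STZ replicate 3 (adjusted p = 0.0433). Of the other proteoglycans Vcan (0.31 ± 0.25), Dcn (0.22 ± 0.12) and Fmod (-0.01 ± 0.75) did not pass.

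In diabetic mG4H hearts 0 of the 51 members passed the threshold of limma, where 0.266% of all genes were called in either direction. An unadjusted p under 0.05 was seen for 7 members and for 3955 of the 28235 genes, which are near-equal shares. The median over the members was -0.05, against 0.06 over all genes. Ctgf came closest. Its lowest, median and highest values were 0.38, 1.27 and 3.37 in mG4H STZ hearts, against -0.58, -0.10 and 0.21 in mG4H VEH hearts. It was the only member with every mG4H STZ heart above every mG4H VEH heart, 1 of 51 or 1.96%, against 0.453% of all genes. The difference was 1.78 ± 0.40 (SE, n = 6 each), 3.44-fold (adjusted p = 0.0563), and 2.19, 1.01 and 2.26 within slides 1 to 3. It passed (adjusted p = 0.0373) without CON STZ replicate 3, and missed with slide as a block (adjusted p = 0.0737). The highest Ctgf values, 3.37 and 2.83, were those of mG4H STZ replicates 3 and 5, on slides 3 and 1. The other mG4H STZ hearts lay between 0.38 and 1.42. Without all 3 arrays that stood apart 0 members were called in mG4H hearts, while 0.0319% of all genes were called higher and 0.0496% lower.

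**Figure D4:**
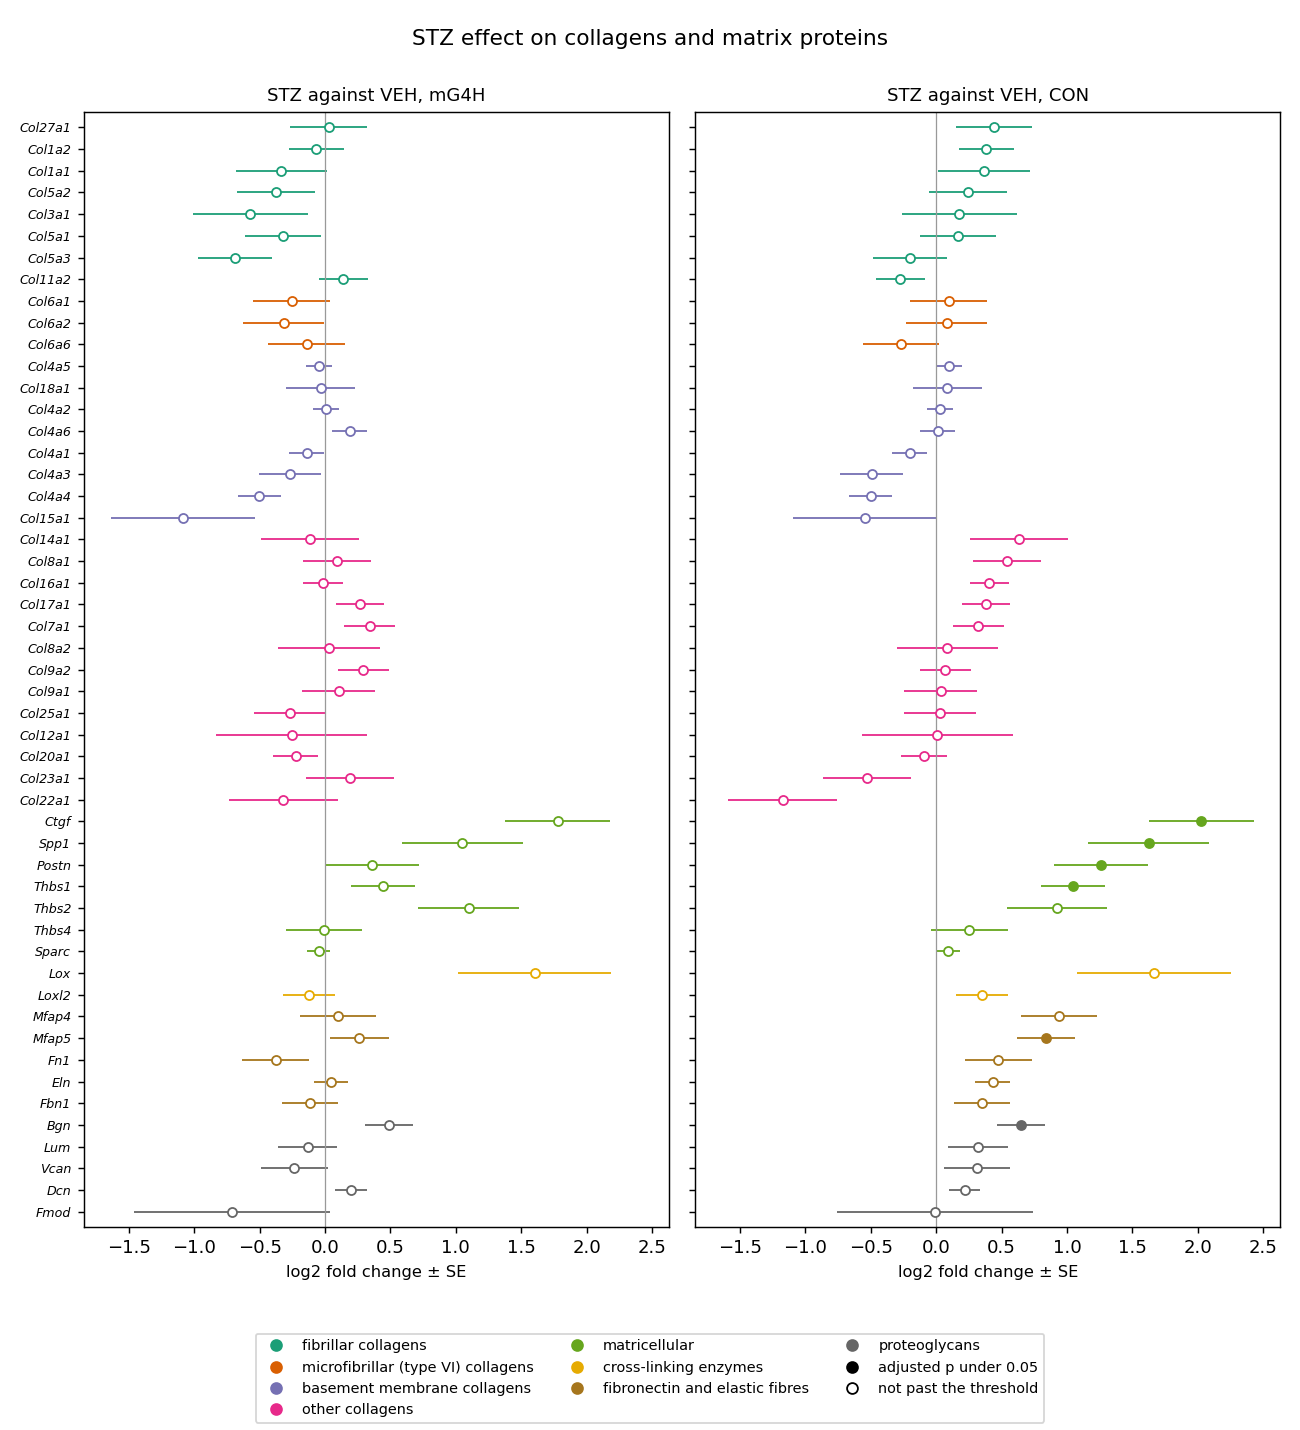
Log2 fold change with its SE (horizontal axis), STZ against VEH, of the 51 members, in mG4H hearts (left) and in CON hearts (right). Colours mark the roles and filled points have an adjusted p under 0.05. Filled points are seen in CON hearts only, at 0.65 to 2.03, while Ctgf in mG4H hearts is open at 1.78.

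The other members called in CON hearts had smaller differences in mG4H hearts. Thbs1 had lowest, median and highest values of 0.45, 1.03 and 2.03 in mG4H STZ hearts, against 0.07, 0.49 and 1.34 in mG4H VEH hearts (0.44 ± 0.25, adjusted p = 0.441). Postn had -0.30, 0.55 and 1.54 in mG4H STZ hearts, against -0.40, 0.19 and 0.79 in mG4H VEH hearts (0.36 ± 0.36, adjusted p = 0.752). Spp1 had 0.29, 0.71 and 2.56 in mG4H STZ hearts, against -0.82, -0.21 and 0.69 in mG4H VEH hearts (1.05 ± 0.46, adjusted p = 0.304). These groups overlapped, and mG4H STZ replicate 3 gave the highest value for all 3 genes. Mfap5 was at 0.26 ± 0.23 and Bgn at 0.49 ± 0.18 (adjusted p = 0.221). Thbs2 (1.1 ± 0.39) and Lox (1.60 ± 0.59) were highest in replicates 3 and 5 of mG4H STZ, at 2.67 and 2.24 for Thbs2. The lowest mG4H STZ hearts, at -0.53 for Thbs2 and 0.01 for Lox, lay within or below the range of mG4H VEH hearts.

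The fibrillar collagens of diabetic mG4H hearts had negative differences in 6 of 8 genes, with a median of -0.33, and of -0.07 without mG4H STZ replicate 5 and CON STZ replicate 3. Col1a1 had lowest, median and highest values of -1.58, -0.12 and 0.39 in mG4H STZ hearts, against -0.49, 0.16 and 0.64 in mG4H VEH hearts (-0.33 ± 0.35). Col1a2 had -0.80, 0.04 and 0.23 in mG4H STZ hearts, against -0.25, -0.07 and 0.34 in mG4H VEH hearts (-0.07 ± 0.21). Col3a1 had -2.35, -0.33 and 0.26 in mG4H STZ hearts, against -0.21, -0.05 and 0.32 in mG4H VEH hearts (-0.57 ± 0.44). For all 3 the lowest heart was mG4H STZ replicate 5, and the groups overlapped. Col5a3 had the most negative fibrillar difference, at -0.69 ± 0.28 (adjusted p = 0.261), and Fn1 was at -0.38 ± 0.26.

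The other roles held no call in mG4H hearts either. The basement membrane median was -0.09, the type VI median -0.25, that of 13 further collagens 0.03, that of fibronectin and elastic fibres 0.04 and that of proteoglycans -0.13. Col4a4 had lowest, median and highest values of -1.23, -0.56 and -0.22 in mG4H STZ hearts, against -0.31, -0.16 and 0.17 in mG4H VEH hearts, with overlap. Its difference of -0.50 ± 0.16 (adjusted p = 0.165) equalled that in CON hearts to 2 decimals. Col15a1 was at -1.09 ± 0.55, and at -0.40 on the probe that was above background on all arrays. Mfap4 was at 0.10 ± 0.29 and Lum at -0.13 ± 0.23. Fmod, the proteoglycan fibromodulin, was at -0.71 ± 0.75, the widest error of the 51 members.

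Set side by side, the fibrillar mean lay below the matricellular mean in every STZ heart. The mean of the 8 fibrillar collagens was between -1.29 and 0.20 (median -0.13) in mG4H STZ hearts, against -0.20 to 0.28 (median 0.01) in mG4H VEH hearts. It was between -1.21 and 0.64 (median 0.43) in CON STZ hearts, against -0.13 to 0.06 (median 0.03) in CON VEH hearts. The mean of the 7 matricellular genes was between 0.38 and 1.78 (median 0.46) in mG4H STZ hearts, against -0.15 to 0.41 (median -0.01) in mG4H VEH hearts. It was between 0.63 and 1.72 (median 0.98) in CON STZ hearts, against -0.22 to 0.14 (median 0.03) in CON VEH hearts.

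The fibrillar mean minus the matricellular mean was negative in 6 of 6 mG4H STZ and 5 of 6 mG4H VEH hearts, and in 6 of 6 CON STZ and 4 of 6 CON VEH hearts, so the sign alone does not separate the groups. It averaged -0.98 ± 0.88 (SD, n = 6) in mG4H STZ and -0.04 ± 0.06 in mG4H VEH hearts, and -0.89 ± 0.60 in CON STZ and 0.00 ± 0.09 in CON VEH hearts. The highest STZ value, -0.24, lay below the lowest VEH value, -0.12. The 5 CON STZ hearts other than replicate 3 had both classes above all CON VEH hearts. Replicate 3 of CON STZ and replicate 5 of mG4H STZ had matricellular means of 0.80 and 0.78 beside fibrillar means of -1.21 and -1.29. Without CON STZ replicate 3 the STZ effect on the difference was -0.64 in CON hearts, and without all 3 arrays that stood apart it was -0.38 in mG4H hearts. The matricellular class is not uniform, since Sparc, Thbs2 and Thbs4 did not pass in either genotype with all arrays. Members and roles were chosen with earlier results of these data known, so these means are a description and were not tested.

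**Figure D5:**
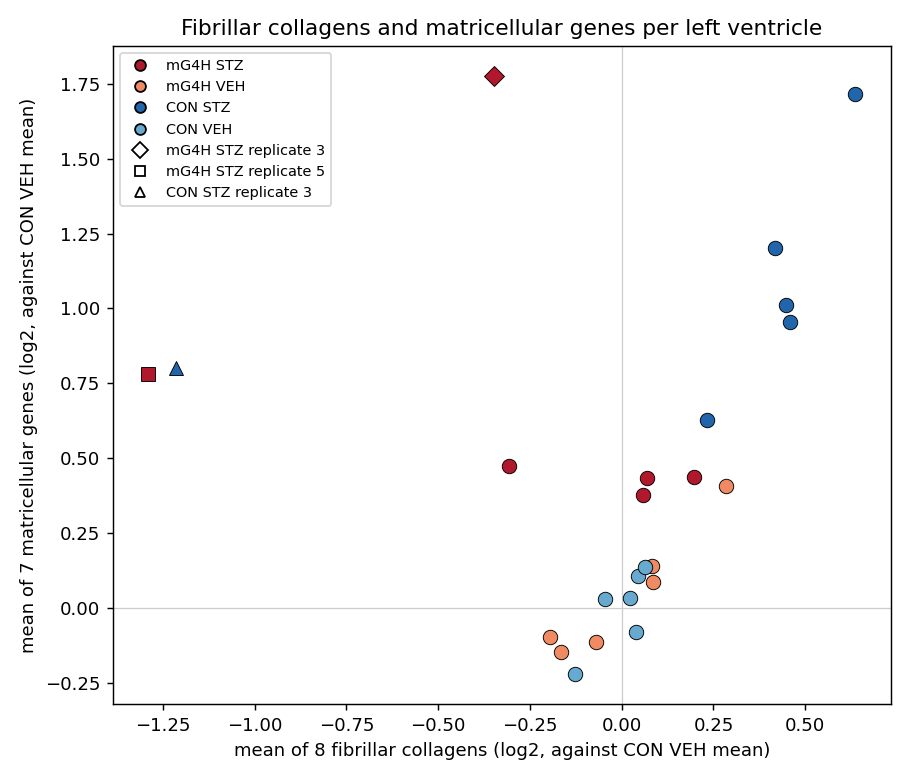
Mean of the 7 matricellular genes (vertical axis) against the mean of the 8 fibrillar collagens (horizontal axis) in each left ventricle, both log2 against the CON VEH mean. Colours mark the groups, and symbols mark the 3 arrays that stood apart. CON STZ hearts other than replicate 3 sit at 0.23 to 0.64 on the fibrillar axis, and replicate 3 sits at -1.21.

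Between genotypes no member passed the threshold. These contrasts reuse the 24 hearts of the STZ contrasts. Under STZ, mG4H against CON gave 0 of 51 members called by limma, against 0.0106% of all genes, and under VEH 0 of 51, against 0.0815% of all genes. An unadjusted p under 0.05 was seen for 5 members and 1003 genes under STZ, and for 1 member and 811 genes under VEH. Under STZ 41 members had lower means in mG4H hearts and 10 had higher ones, with a median of -0.27, against 0.02 over all genes. This direction did not hold on every slide: the fibrillar median was -0.99, -0.83 and 0.28 within slides 1, 2 and 3, the type VI median -0.92, -0.66 and 0.42, and the matricellular median -0.17, -0.85 and 0.12. Slide 3 held CON STZ replicate 3 and mG4H STZ replicate 3, and slide 1 held mG4H STZ replicate 5. Without these 3 arrays the median was -0.37 over the members, against 0.04 over all genes. It was -0.53 over the fibrillar collagens and -0.60 over the matricellular genes. In that fit 0 members were called, while 0.0248% of all genes were called higher and 0.0531% lower. Under VEH 23 were lower and 28 higher. The 5 with an unadjusted p under 0.05 under STZ were Col1a2 (-0.46 ± 0.21), Col16a1 (-0.35 ± 0.15), Eln (-0.28 ± 0.13), Mfap4 (-0.61 ± 0.29) and, the other way, Col22a1 (0.89 ± 0.42). Other probes of Col16a1 gave -0.43 and 0.35 in this contrast. Under VEH the member with an unadjusted p under 0.05 was Thbs1 (0.59 ± 0.25). It had 0.07, 0.49 and 1.34 in mG4H VEH hearts, against -0.48, 0.05 and 0.33 in CON VEH hearts, and the groups overlapped. The difference between the STZ effects of both genotypes passed for 0 of 51 members and for 0% of all genes in limma, with 2 members and 501 genes at an unadjusted p under 0.05. It was -0.75 ± 0.62 for Col3a1, -0.70 ± 0.50 for Col1a1, -0.90 ± 0.51 for Postn, -0.58 ± 0.32 for Mfap5 and -0.25 ± 0.57 for Ctgf. An STZ effect that passed in CON and not in mG4H hearts is therefore not shown to differ between the genotypes. Fn1 (-0.85 ± 0.37, unadjusted p = 0.0277) and Eln (-0.39 ± 0.19, unadjusted p = 0.0492) were the 2 members with an unadjusted p under 0.05.

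Genes around the matrix were read from lists of its makers, signals and receptors. Of 21 measured genes of collagen processing, 3 rose in CON STZ hearts and 0 fell: Leprel1, a collagen prolyl 3-hydroxylase, by 1.0 ± 0.21 (adjusted p = 0.00713), Pcolce2, which speeds procollagen trimming, by 0.41, and Plod3, a lysyl hydroxylase, by 0.32. Of the TGF beta pathway genes reported here, Inhba, which encodes an activin subunit, rose by 0.73 ± 0.20 (adjusted p = 0.0391) and Smad7, an inhibitor of the pathway, by 0.54 ± 0.13 (adjusted p = 0.0228). They are not all the calls of that list. Of 22 matrix receptors, Itgb1, the common integrin beta chain, passed, at 0.34, and 0 passed as lower. Differences of the 22 ran from -2.29 to 0.75, with 15 positive and 7 negative. List medians were 0.09, 0.19 and 0.15, against 0.03 over all genes. In mG4H STZ hearts 0 genes of these lists passed in limma (4, 5 and 6 unadjusted).

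Markers of other cell types were mostly below the threshold. Of 13 fibroblast markers 0 passed in CON hearts (4 unadjusted), and 0 in mG4H hearts (1 unadjusted). The mean over the list ran from -0.37 to 0.22 in mG4H STZ and from -0.10 to 0.15 in mG4H VEH hearts. It ran from -0.44 to 0.41 in CON STZ hearts, against -0.17 to 0.12 in CON VEH hearts. CON STZ replicate 3 and mG4H STZ replicate 5 were the lowest of their groups, as they were for fibrillar collagen. Of 10 markers of activated fibroblasts 1 rose in CON STZ hearts, Cilp, a matrix protein that binds TGF beta, by 1.48 ± 0.38 (adjusted p = 0.0302). Differences of the 10 ran from -0.89 to 1.48 in CON hearts, with 7 positive, 3 negative and a median of 0.15. In mG4H hearts 3 were positive and 7 negative, with a median of -0.14. Of 12 macrophage and monocyte markers 1 rose in CON STZ hearts, Itgam. The macrophage mean ran from -0.19 to 0.91 in CON STZ hearts, against -0.11 to 0.14 in CON VEH hearts, and was 0.73 in mG4H STZ replicate 3. At least 11 of the 12 macrophage markers were well above background on every array, and the part of these cells in the matrix results was not tested. Smooth muscle and ventricular cardiomyocyte lists had 1 gene lower each, Mcam and Ckm, the atrial list had Nppa higher, by 2.36, and the endothelial, adipocyte, nerve, epicardial and valve lists had 0 genes past the threshold in limma (4, 4, 0, 1 and 2 unadjusted), all in CON hearts. In mG4H hearts Nppa, which encodes atrial natriuretic peptide, rose by 2.00 ± 0.43 (adjusted p = 0.0494), and no other marker on these lists passed. The atrial list as a whole did not follow Nppa. Of its 5 genes, 3 had positive and 2 negative differences in CON hearts, with a median of 0.06. In mG4H hearts 2 were positive and 3 negative, with a median of -0.96.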

How the data were processed

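RNA of 24 left ventricles, 1 array each, was measured on 1-colour Cy3 Agilent arrays, read with Feature Extraction 10.5.1.1 per the file headers. The deposited intensity used is the processed signal, already background-corrected per the file headers. Agilent Feature Extraction and limma are named in the submitters' processing notes. Here log2 of the deposited signal was taken minus each array's 75th percentile. Control spots and outlier-flagged spots were left out, and spots of 1 probe averaged. Probes well above background on at least 6 of 24 arrays were kept (39766 of 55681), and the brightest probe stood for a gene. Of all values 0.0826% were missing. limma 3.58.1 (R 4.3.3) was fitted with 1 mean per group over all 4 groups, and 5 contrasts were adjusted by Benjamini-Hochberg over all 28235 genes. The limma step was tested on simulated data. Members, roles and lists were chosen with earlier results of these data known. Full values are given for called members, for the 2 of largest change in CON hearts in each role, and for Col1a1, Col1a2, Col3a1, Col4a1, Fn1 and Sparc. Probe positions are mm9, from the deposited files. Groups and slides come from the labels and the file headers. Alternatives changed the scaling, background correction, filter, probe choice, blocks, prior, weights, covariate, threshold and arrays. Replicate numbers were not taken to pair the hearts, since same-numbered arrays had correlations of deviations from -0.60 to 0.66, though all 6 pairs of number 6 were positive (0.22 to 0.66). Promoters and their motifs were read with Python 3.11.15 from RefSeq's table. 1 gene of the TGF beta list is not reported here.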

Additional observations from a re-analysis of the deposited data

Results flagged for a closer look

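In groups of 6, an array was singled out when its gap to the nearest other array exceeded the 95% critical share of the group's range in Dixon's test. Of 203 tests of a member in a group, 34 did so, and chance gives about 1 in 20 for a single test. Members were read on the same arrays, so these tests are not independent and the 34 cannot be judged against that rate. Of the 34, 26 lay on the 3 arrays that stood apart and 8 on 6 other arrays. Those 3 arrays were chosen after seeing the same data, so this share is not separate evidence that they differ.

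By this test CON STZ replicate 3 was singled out as lowest for 15 members, which leaves out members for which it was lowest by a smaller gap. Among fibrillar collagens these were Col1a1 at -1.47, Col1a2 at -0.74, Col3a1 at -2.34, Col5a1 at -1.39, Col5a2 at -1.29, Col5a3 at -1.34 and Col27a1 at -1.05. Among other collagens they were Col6a1 at -1.61, Col6a2 at -1.38, Col14a1 at -1.35, Col15a1 at -3.05, Col16a1 at -0.38 and Col18a1 at -1.39. Fbn1, at -0.83, and Lum, at -0.98, completed them. The same heart was singled out as highest for Thbs2, at 2.12.

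By the same test mG4H STZ replicate 5 was singled out as lowest for 7 members, which were Col1a1 at -1.58, Col3a1 at -2.35, Col5a1 at -1.51, Col27a1 at -1.19, Col6a1 at -1.38, Col25a1 at -1.67 and Fbn1 at -0.78. Of these, 6 were also on the list of CON STZ replicate 3. mG4H STZ replicate 3 was singled out as lowest for Fn1, at -1.13, and as highest for Spp1, at 2.56, and Mfap5, at 1.51.

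Elsewhere, the test singled out Col23a1 as lowest in CON STZ replicate 4, at -2.68, Col9a2 in mG4H VEH replicate 4, at -0.55, and Sparc in mG4H VEH replicate 5, at -0.22. In CON VEH hearts Col27a1 was highest in replicate 5, at 0.45, and Thbs2 in replicate 6, at 0.28. Col6a6 was lowest in CON VEH replicate 5, at -0.44, while replicate 4 was lowest for Col6a1, at -0.25, and for Fbn1, at -0.35. The cause was not tested.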

How the results depend on the processing

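None of the 6 members called in CON hearts changed direction under any alternative run; genes of the other lists were not rerun. The 6 members called in CON hearts became 1 under median scaling, 2 without the filter on dim probes, 2 with slide, 2 with scan day and 2 with the replicate number as a block, 17 with array weights (16 higher and 1 lower), 0 with body weight as a covariate, 1 without the slide 4 arrays and 1 at an adjusted p under 0.01. Leaving out 1 array gave 1 (without CON STZ replicate 1) to 13 (without CON STZ replicate 3), with 8 without mG4H STZ replicate 3, 6 without mG4H STZ replicate 5 and 2 to 4 without each of the other 20 arrays. Settings chosen after seeing the data gave 20 without CON STZ replicate 3 and mG4H STZ replicate 5, and 25 (24 higher, 1 lower) when mG4H STZ replicate 3 was left out too. Calls over all genes rose as well, to 2.22% higher and 2.4% lower in the former fit and to 4.21% higher and 4.17% lower in the latter. In mG4H hearts 1 member, Ctgf, was called with quantile normalization, normexp, the filter on all 24 arrays, the replicate block, a trended robust prior or array weights, and leaving out 1 array gave 0 to 2 (1, Ctgf, without CON STZ replicate 3 or 6, and Ctgf and Thbs2 without mG4H STZ replicate 2). The STZ effect on fibrillar minus matricellular means was -0.38 in mG4H hearts with all 3 arrays left out. With 1 array left out it ran from -1.09 to -0.71 in mG4H and from -0.97 to -0.64 in CON hearts, its genotype difference from -0.30 to 0.15, and the mG4H effect under STZ from -0.34 to 0.11. The median over the members then ran from -0.09 to 0.04 in mG4H and from 0.11 to 0.45 in CON hearts. Over all alternatives the call of Spp1 was lost in 31 of 40, of Postn in 29 of 41, of Bgn in 25, of Mfap5 in 16, of Thbs1 in 4 and of Ctgf in 1. Over all genes, 1117 were called in CON hearts with all arrays, 75 under median scaling, 2427 with array weights and 168 with body weight. Quantile normalization gave 1206, normexp 1138 and the fit without the filter on dim probes 837 of 36389. For the blocks, the fit without slide 4 arrays, the stricter threshold and most fits without 1 array, counts over all genes are not given here. Fewer member calls in those settings are therefore not set against calls over all genes. Median scaling put the all-gene median in mG4H hearts at -0.05 instead of 0.06. The mean of all probes of a gene gave 4 called members in CON hearts, without Postn and Spp1. Called members have 1 probe each, so this choice left their own signals as they were, and members not well above background on every array were absent from the strictest filter. The causes were not tested.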
